A study of Mus musculus with 12 samples.

Results

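Potassium channel genes were followed in isolated mouse glomeruli in which podocytes lacked Dach1, a gene for a nuclear transcription cofactor. The members were all symbols of the count tables that start with Kcn and a further letter, without antisense transcripts (names ending in os) and without Kcnq1ot1. This gave 56 of 16298 listed genes. Of these, 32 were listed in both arms of the study, 24 only in the tables of the streptozotocin arm, and 0 only in the baseline tables. The rule used symbols alone and no measured value.

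The study compared control and Podocyte-specific DACH1 KO mice of the C57BL/6 background in 4 groups of 3 mice, each mouse giving 1 RNA-seq library of glomeruli collected with magnetic beads. The baseline arm held untreated controls and knockouts aged 10 weeks. The streptozotocin (STZ) arm held controls and knockouts given 50 µg/g STZ per day on 5 days, a toxin of pancreatic beta cells used to make mice diabetic, with glomeruli taken 10 days later. No source used here gives the age of the STZ mice, the promoter that drove the deletion or the genotype behind the control label. The titles of the 3 STZ controls carry the mark hetN, which the labels do not explain. The deletion concerns podocytes, whereas the RNA came from all cells of the glomerular preparation. In such bulk samples fewer cells of a type and less RNA per cell cannot be told apart.

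Potassium channels let potassium ions cross a membrane down their gradient and so set the membrane potential. Voltage-gated (Kv) channels open on depolarization, inward rectifiers (Kir, symbols Kcnj) conduct best near the resting potential, and channels with a pair of pore domains in each subunit (K2P, symbols Kcnk) carry background currents. Accessory subunits change the gating or the traffic of the pore-forming ones. In the kidney, Kir channels of tubule cells secrete and recycle potassium, and vascular smooth muscle cells use calcium-activated channels to limit contraction.

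The baseline libraries held 22600000 to 24900000 counts each, and the STZ libraries 66100000 to 78600000. Levels are given in CPM, a gene's counts brought to a common library total and scaled with TMM factors within each arm, so that levels of the arms set side by side come from tables normalized separately. Dach1 itself measured 106 to 188 CPM in the 6 controls and 47.2 to 66.7 CPM in the 6 knockouts, with no overlap in either arm. All 8 podocyte markers were listed, with a summed level of 18200 to 35700 CPM. The tubule markers Lrp2 (98.9 to 888 CPM) and Umod (522 to 1510 CPM) were present in every library. Libraries are numbered within a group only to name them. Xist and Ddx3y levels placed control 1 and 2 and knockout 1 and 2 at baseline, and knockout 2 after STZ, as female, and the other libraries as male. The arms differed in the genes listed, in depth, in the mix of sexes and in treatment. A difference between arms therefore cannot be told apart from sex or from how each arm was prepared.

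Members are called at an adjusted p under 0.05 from edgeR's quasi-likelihood test, adjusted over all genes tested. After STZ, 6 of the 56 members were called between knockouts and controls. Kcnk15, Kcnip4, Kcnf1, Kcnd3 and Kcnh3 were higher in knockouts, and Kcng2 was lower. That is 10.7% of the members, against 1.07% of all 16291 genes tested. Every gene of the STZ tables reached 100 counts in at least 1 STZ library. Kcnk15 and Kcnip4 did so in knockouts only, so their listing depended on the group in which they were high. This limits what the share says about the members. At baseline 0 of 32 members were called, against 0.23% of 13475 genes, while 5 members had an unadjusted p under 0.05 (15.6%, against 6.94% of all genes) and DESeq2 called 1, Kcng2, and 1.65% of all genes. In the same edgeR test the deleted gene, Dach1, was not called at baseline either (log2 fold change -1.48, SE 0.23, adjusted p 0.111). After STZ Dach1 was called (-1.41, SE 0.14, adjusted p 0.00942). The count of 0 at baseline therefore does not show that the members were unchanged there. Fitted over both arms together, which reuses the same libraries, 3 of 32 members were called: Kcng2 was lower, and Kcnd3 and Kcnh1 were higher. That share, 9.38%, compares with 2.83% of all genes.

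**Figure D1:**
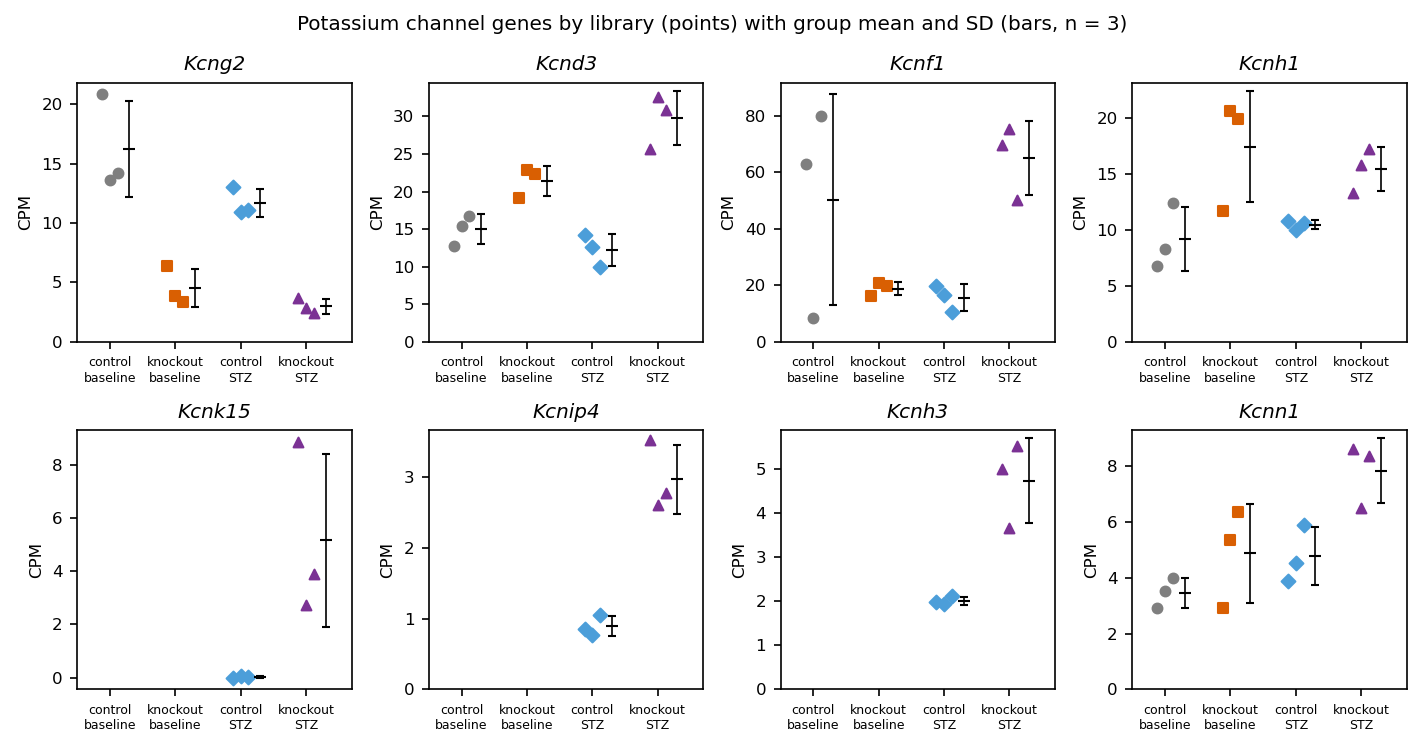
CPM of 8 potassium channel genes by library in the 4 groups, with the group mean and SD beside the points (n = 3 per group). Kcng2 is lower and Kcnd3 higher in every knockout library of each arm, the panels of Kcnk15, Kcnip4 and Kcnh3 are empty at baseline because these genes are listed only in the STZ tables, and Kcnf1 is spread from 8.29 to 79.9 CPM within the baseline controls.

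Kcng2 was the one member called lower. It encodes an electrically silent Kv subunit, which forms no channel alone and assembles with pore-forming Kv subunits. At baseline Kcng2 measured 20.9, 13.6 and 14.2 CPM in controls 1 to 3 and 6.37, 3.88 and 3.36 CPM in knockouts 1 to 3. Every knockout lay below every control, with means of 16.2 ± 4.03 and 4.53 ± 1.61 CPM (SD, n = 3). After STZ it measured 13, 10.9 and 11.1 CPM in controls and 3.68, 2.84 and 2.45 CPM in knockouts, again without overlap. The log2 fold change was -1.84 (SE 0.30) at baseline, with an adjusted p of 0.133, and -1.96 (SE 0.20) after STZ, with an adjusted p of 0.00942. Over both arms it was -1.90 (SE 0.18, adjusted p 0.000115), a 3.74-fold lower level. Under that fit the call held without any 1 of the 12 libraries. Within the STZ arm it was lost without control 2 (adjusted p 0.0583) and without knockout 2 (0.0565).

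Kcng2 also shares 272 exonic bases with a transcript of the other strand, D330025C20Rik, which is not used here. Kcns3, another silent subunit and listed only after STZ, ran from 0.997 to 1.65 CPM over the 6 libraries, with a log2 fold change of -0.19 (SE 0.24).

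The third silent subunit of the tables, Kcnf1, was widely spread among the baseline controls. At baseline Kcnf1 measured 62.8, 8.29 and 79.9 CPM in controls and 16.3, 20.7 and 19.6 CPM in knockouts. Control 2 lay below all knockouts and the other controls far above them, so the groups overlapped, and the log2 fold change of -1.41 had an SE of 0.73 (adjusted p 0.802). After STZ it measured 19.9, 16.5 and 10.4 CPM in controls and 69.7, 75.3 and 50.1 CPM in knockouts. All knockouts were above all controls there, with means of 65 ± 13.3 against 15.6 ± 4.81 CPM (SD, n = 3). The log2 fold change after STZ was 2.06 (SE 0.28, adjusted p 0.0266), and this call was lost in 4 of the 6 fits that left out 1 library, those without control 2 or without any 1 knockout (adjusted p up to 0.141).

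The knockout effects on Kcnf1 in the arms differed by 3.47 on the log2 scale (SE 0.85), with an adjusted p of 0.804 for that interaction over all genes. The value changed its side of the threshold with 1 library. Without baseline control 2 the adjusted p of the interaction was 0.00611, and DESeq2 on all libraries gave 0.00763. No other member was called in the interaction by either tool. In all, 0 of 32 members were called by edgeR, 4 had an unadjusted p under 0.05 (12.5%, against 3.67% of all genes), and 0.00742% of all genes were called. Among the knockouts, Kcnf1 was higher after STZ than at baseline (log2 fold change 1.77, SE 0.18, adjusted p 0.0342), the one member called of 32 (3.12%, against 0.178% of all genes). This call was lost in each of the 6 fits that left out 1 library.

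Kcnd3 encodes a pore-forming Kv4 subunit, which carries fast inactivating A-type current. It lies at chr3:105452330-105674002 on the plus strand. At baseline Kcnd3 measured 12.8, 15.4 and 16.8 CPM in controls and 19.1, 22.8 and 22.3 CPM in knockouts. After STZ it measured 14.2, 12.6 and 9.9 CPM in controls and 25.7, 32.6 and 30.9 CPM in knockouts. Every knockout lay above every control in each arm. The log2 fold change was 0.51 (SE 0.14, adjusted p 0.451) at baseline and 1.28 (SE 0.18, adjusted p 0.0281) after STZ. Over both arms it was 0.90 (SE 0.16, adjusted p 0.00771), called without any 1 of the 12 libraries, whereas the call within the STZ arm was lost without any 1 of its 6 libraries (adjusted p 0.0536 to 0.144). Kcnd3 shares 165 exonic bases with the antisense transcript Kcnd3os, which measured 2.15 to 2.67 CPM in STZ controls and 1.67 to 1.82 CPM in STZ knockouts. No source used here says how the counting treated strand.

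Of the other Kv4 genes, both listed only after STZ, Kcnd2 measured 1.57, 1.32 and 1.39 CPM in controls and 1.9, 1.75 and 1.65 CPM in knockouts, without overlap and not called (log2 fold change 0.31, SE 0.17). Kcnd1 had a log2 fold change of 0.48 (SE 0.24) and was not called either. Kcnip genes encode KChIPs, calcium-binding accessory subunits of Kv4 channels. Kcnip4 (chr5:48389502-49524907, minus strand) measured 0.855, 0.773 and 1.05 CPM in STZ controls and 3.53, 2.61 and 2.78 CPM in STZ knockouts. Its knockouts were all above its controls, and the log2 fold change was 1.74 (SE 0.21, adjusted p 0.0188). Without 1 library this call held only without control 3, and the adjusted p ran from 0.035 to 0.119. Kcnip2 and Kcnip3 overlapped between the groups, with log2 fold changes after STZ of 0.27 (SE 0.29) and 0.01 (SE 0.21). Kcnip4 also shares 168 exonic bases with a gene on the other strand, 5730480H06Rik, which was at 1.67 to 2.12 CPM in STZ controls and 1.32 to 1.55 CPM in STZ knockouts.

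Kcnh genes encode the ether-à-go-go family of Kv channels, of which 7 were listed and 1, Kcnh1, in both arms. Kcnh1 (chr1:192190774-192510159, plus strand) measured 6.81, 8.33 and 12.4 CPM in baseline controls and 11.7, 20.6 and 19.9 CPM in baseline knockouts. Only knockout 1 and control 3 overlapped. After STZ the controls were at 10.8, 10 and 10.6 CPM and the knockouts at 13.3, 15.8 and 17.2 CPM, without overlap. The log2 fold change was 0.92 (SE 0.31, adjusted p 0.629) at baseline and 0.56 (SE 0.14, adjusted p 0.195) after STZ, where DESeq2 called it. Over both arms it was 0.73 (SE 0.17, adjusted p 0.0488), close to the threshold. Of the 12 fits without 1 library, the call held in those without baseline control 3 and without baseline knockout 1, and the highest adjusted p among the others was 0.112.

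Kcnh3 (chr15:99224861-99242817, plus strand) measured 1.99, 1.94 and 2.12 CPM in STZ controls and 5.02, 3.67 and 5.54 CPM in STZ knockouts. All knockouts were above all controls, and the log2 fold change was 1.23 (SE 0.20, adjusted p 0.0447). That call was lost in all 6 fits without 1 library (adjusted p 0.0565 to 0.214). Kcnh4 had the opposite sign, with a log2 fold change of -0.91 (SE 0.42), but its controls ran from 1.21 to 3.73 CPM and overlapped the knockouts at 0.95 to 1.53 CPM. Kcnh2, which encodes the hERG channel of the heart, was at 2.33 to 2.75 CPM in controls and 1.56 to 2.54 CPM in knockouts, and Kcnh6, Kcnh7 and Kcnh8 had log2 fold changes from -0.21 to 0.29.

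Kcnk15 showed the largest contrast among the members. It encodes a K2P subunit of the TASK group, for which no current of its own is established. The gene lies at chr2:163853651-163859746 on the plus strand. In the STZ controls it had a blank value, taken as 0, then 4 and 2 counts, and in the STZ knockouts 662, 214 and 283 counts. In CPM these are 0, 0.0524 and 0.0287 against 8.86, 2.74 and 3.88. Summed over 3 libraries each, 1159 knockout counts stood against 6 control counts. Scaled by the TMM-adjusted library totals of the groups, the ratio was 186 (exact 95% bounds of 85.2 and 508, for counting error only). The fitted log2 fold change was 7.46 (SE 0.79, adjusted p 0.0116), a value that depends on the prior count. It ran from 6.82 without knockout 1 to 8.34 without control 2. The call was lost without control 2 (adjusted p 0.0729) and held without any 1 of the other libraries. The gene had no value at baseline, so its knockout effect was not measured there.

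Promoter sequences are shown for the 4 members called higher in knockouts, in the STZ arm or over both arms, that have an entry among RefSeq promoters of GRCm38.p6. The start regions of genes called in the same direction can thus be compared. Of these, Kcnf1 was higher after STZ but had a log2 fold change of -1.41 at baseline, not called. A total of 40 of the 56 members had an entry. Each sequence runs 5′ to 3′ on the gene's strand from 250 bases before to 50 bases after the RefSeq start, with CpG dinucleotides in capitals. They lie at chr2:163853500-163853799 (Kcnk15, plus strand), chr12:17176839-17177138 (Kcnf1, minus strand), chr3:105451640-105451939 (Kcnd3, plus strand) and chr1:192190527-192190826 (Kcnh1, plus strand). The Kcnd3 region ends before the gene start of 105452330 given above, so its RefSeq start lies outside that gene model.
Kcnk15: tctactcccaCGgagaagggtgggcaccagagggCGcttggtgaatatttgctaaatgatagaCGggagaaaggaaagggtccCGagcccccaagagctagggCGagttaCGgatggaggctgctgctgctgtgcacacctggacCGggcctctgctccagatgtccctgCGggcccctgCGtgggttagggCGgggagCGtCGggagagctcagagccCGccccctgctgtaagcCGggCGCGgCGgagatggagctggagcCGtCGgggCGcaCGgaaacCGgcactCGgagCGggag
Kcnf1: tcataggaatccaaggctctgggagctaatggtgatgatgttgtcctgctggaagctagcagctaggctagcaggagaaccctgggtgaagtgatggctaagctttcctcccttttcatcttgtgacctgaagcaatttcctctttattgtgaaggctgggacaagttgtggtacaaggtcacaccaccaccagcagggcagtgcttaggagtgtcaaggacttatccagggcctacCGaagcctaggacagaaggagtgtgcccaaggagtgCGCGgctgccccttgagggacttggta
Kcnd3: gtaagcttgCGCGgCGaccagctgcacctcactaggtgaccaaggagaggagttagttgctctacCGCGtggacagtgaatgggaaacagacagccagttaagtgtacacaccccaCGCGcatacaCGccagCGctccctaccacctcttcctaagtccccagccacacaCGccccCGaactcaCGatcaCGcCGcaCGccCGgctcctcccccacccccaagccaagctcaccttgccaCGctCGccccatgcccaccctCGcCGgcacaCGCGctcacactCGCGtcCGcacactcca
Kcnh1: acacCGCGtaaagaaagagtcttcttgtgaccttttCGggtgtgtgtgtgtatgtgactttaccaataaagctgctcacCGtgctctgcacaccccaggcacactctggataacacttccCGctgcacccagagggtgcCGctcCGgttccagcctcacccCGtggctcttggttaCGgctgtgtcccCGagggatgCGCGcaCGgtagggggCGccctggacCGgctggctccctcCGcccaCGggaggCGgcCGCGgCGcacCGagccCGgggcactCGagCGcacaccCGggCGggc

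The start regions differed in base composition. Those of Kcnk15, Kcnd3 and Kcnh1 held 24, 25 and 27 CpG dinucleotides, against 3 in that of Kcnf1. Over 32851 promoters of the same length the median was 7, with quartiles of 3 and 20, so that 3 of the 4 lay above the upper quartile and Kcnf1 at the lower one. The GC box GGGCGG, read on both strands, was found 2 times each in the Kcnk15 and Kcnh1 regions and in 35.7% of all promoters. CCAAT was found 1 time, in the Kcnh1 region, and in 37.4% of all promoters. TATAAA (13.6% of all promoters) and the forkhead core TGTTTAC (3.6%) were in none of the 4 regions. Motifs are letter matches only.

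The other K2P genes were not called in any knockout comparison. Kcnk6, for TWIK-2, measured 20.6, 17.6 and 15.3 CPM in STZ controls and 7.45, 13.4 and 12 CPM in STZ knockouts, without overlap (log2 fold change -0.71, SE 0.24, adjusted p 0.406). At baseline its groups overlapped, at 16.2 to 19.5 CPM in controls and 14 to 17.1 CPM in knockouts. Kcnk1, Kcnk5, Kcnk2 and Kcnk3 had log2 fold changes after STZ from -0.44 to 0.06. Kcnk10, for the stretch-gated channel TREK-2, differed between arms. It measured 5.81, 3.82 and 5.22 CPM in baseline controls and 0.967, 1.69 and 0.631 CPM in STZ controls, and 4.14, 2.66 and 9.39 CPM in baseline knockouts against 0.709, 0.563 and 0.548 CPM in STZ knockouts. The arms did not overlap in either genotype. After STZ these levels rest on 69, 129 and 44 counts in controls and 53, 44 and 40 counts in knockouts. The log2 fold change of knockouts against controls was 0.12 (SE 0.47) at baseline and -0.85 (SE 0.38, adjusted p 0.584) after STZ, with overlap in both arms. The log2 fold change of STZ against baseline was -2.19 (SE 0.39, adjusted p 0.145) in controls and -3.16 (SE 0.50, adjusted p 0.0924) in knockouts, both short of the threshold in edgeR and past it in DESeq2, which called 3.04% and 5.97% of all genes in these comparisons.

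Between arms in the controls 0 of 32 members were called, against 0.23% of 13473 genes, while 9 members had an unadjusted p under 0.05 (28.1%, against 12.6% of all genes) and DESeq2 called 2, Kcnk10 and Kcnab1, and 3.04% of all genes. All 9 of these were lower after STZ. Among them were Kcnk10, Kcnab1, Kcnj5, Kcnj12, Kcnmb1, Kcna5, Kcng2 and Kcnip2, with log2 fold changes from -2.19 to -0.50. Baseline controls 1 and 2 were female by Xist and Ddx3y and all STZ controls male, so sex differed between these groups too. Kcnj5, which encodes a G-protein-gated Kir subunit, measured 94.3 to 122 CPM in baseline controls and 50.8 to 82.4 CPM in STZ controls, and 93.1 to 107 CPM against 63.7 to 90.3 CPM in knockouts, without overlap in either genotype. Its log2 fold change was -0.71 (SE 0.20, adjusted p 0.263) in controls and -0.39 (SE 0.16, adjusted p 0.335) in knockouts. Over the same libraries the 7 listed mesangial markers had a median log2 fold change of -0.99 in controls and -0.80 in knockouts. The 6 immune markers tested, of 8, had 2.49 and 1.99. Immune levels were uneven within the STZ groups. The mean log2 CPM of all 8 was 5.64, 3.5 and 3.33 in STZ controls 1 to 3 and 3.13, 4.54 and 4.54 in STZ knockouts 1 to 3. The part of these cells in the members' values was not tested.

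Calcium-activated channel genes were not called between genotypes by edgeR on all libraries. Kcnn1, for a small-conductance channel, measured 3.87, 4.52 and 5.9 CPM in STZ controls and 8.62, 6.51 and 8.36 CPM in STZ knockouts, without overlap (log2 fold change 0.72, SE 0.21, adjusted p 0.285). At baseline it was at 2.91 to 3.98 CPM in controls and 2.92 to 6.35 CPM in knockouts, with overlap, and over both arms its log2 fold change was 0.61 (SE 0.19, adjusted p 0.144). That value was called without baseline knockout 1 (0.73, adjusted p 0.0211) and by DESeq2 (adjusted p 0.0379), which called 5.17% of all genes there. Kcnmb1, the smooth muscle accessory subunit of the large-conductance channel, measured 4.95, 5.17 and 4.15 CPM in STZ controls and 10.1, 6.99 and 7.49 CPM in STZ knockouts. Its groups did not overlap (log2 fold change 0.79, SE 0.19, adjusted p 0.183), and DESeq2, which called 3.47% of all genes after STZ, called it. The summed level of the 8 smooth muscle and renin cell markers, all listed after STZ, was 573 to 765 CPM in STZ controls and 761 to 2270 CPM in STZ knockouts. The markers did not rise as a set. Only 4 of the 8 had a positive log2 fold change after STZ, the median was 0.046, and Tagln alone was called, as higher. The part of these cells in the Kcnmb1 value was not tested. Kcnma1, the pore-forming gene that Kcnmb1 serves, was at 5.2 to 7.04 CPM in STZ controls and 5.9 to 7.23 CPM in STZ knockouts. Kcnn2, Kcnn3 and Kcnn4, listed only after STZ, had log2 fold changes from -0.20 to 0.14. The sodium-activated channel genes Kcnt1 and Kcnt2 and the sperm channel gene Kcnu1 had log2 fold changes from -0.22 to 0.06 at baseline and from -0.32 to 0.12 after STZ.

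Inward rectifiers held the highest levels per length, and several were widely spread between mice of a group. Kcnj16 and Kcnj10 encode subunits that assemble into the basolateral channel of tubule cells, Kcnj15 encodes a related subunit, and Kcnj1 encodes ROMK, the secretory channel of the distal nephron. Kcnj16 measured 130, 266 and 132 CPM in baseline controls and 82.2, 383 and 413 CPM in baseline knockouts. After STZ it measured 88.9, 154 and 270 CPM in controls and 272, 105 and 102 CPM in knockouts. Both groups overlapped in each arm, and the log2 fold change was 0.73 (SE 0.62) at baseline and -0.10 (SE 0.52) after STZ. Kcnj15 ran from 45.8 CPM (knockout 1) to 403 CPM (knockout 3) within the baseline knockouts, and Kcnj10 from 17.5 to 54.8 CPM over the same mice. Kcnj1 likewise had 48.5, 119 and 133 CPM in the baseline knockouts.

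Kcnj16 and Kcnj15 were high in the libraries with high tubule markers. All 10 proximal tubule markers were listed, and their mean log2 CPM was 6.89, 7.9 and 7.21 in baseline controls, 6.22, 8.81 and 9.22 in baseline knockouts, 6.41, 7.25 and 8.52 in controls after STZ and 8.32, 7.14 and 6.87 in knockouts after STZ. Their summed level ran from 1010 CPM in baseline knockout 1 to 19800 CPM in baseline knockout 3. In each of the 4 groups the libraries had the same order in Kcnj16 and in Kcnj15 as in the marker mean. Their order differed from that of the summed level in baseline controls and STZ knockouts. The sums were 3130 and 3650 CPM in baseline controls 2 and 3, and 1880 and 2100 CPM in STZ knockouts 2 and 3. Kcnj5 did not follow the marker mean, with 107, 93.2 and 93.1 CPM in baseline knockouts 1 to 3. Kcnj1 did not follow the marker mean in the baseline controls, where it measured 77.2, 72.3 and 75 CPM, or in STZ knockouts 2 and 3, at 49.5 and 54.6 CPM. The part of tubule fragments in the levels of the members was not tested. With the tubule marker mean as a covariate, the same 6 members were called after STZ and the same 3 over both arms, and Kcng2 was called at baseline. More of all genes were called with this covariate too. The shares were 2.09% after STZ, 4.13% over both arms and 0.505% at baseline, against 1.07%, 2.83% and 0.23% without it.

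**Figure D2:**
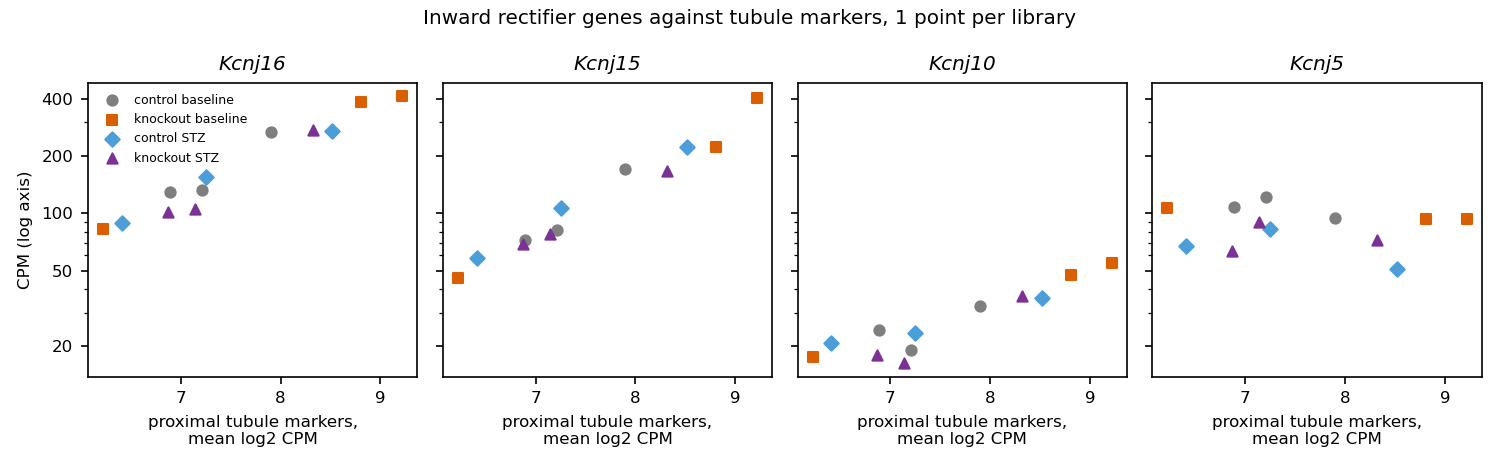
CPM (log axis) of Kcnj16, Kcnj15, Kcnj10 and Kcnj5 against the mean log2 CPM of 10 proximal tubule markers, 1 point per library, with the 4 groups by colour and shape. Kcnj16, Kcnj15 and Kcnj10 are highest in the libraries to the right, such as baseline knockout 3 at a marker mean of 9.22, whereas Kcnj5 stays between 50.8 and 122 CPM.

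The remaining inward rectifiers were Kcnj12 and Kcnj2, which encode strong rectifiers of the Kir2 family. Kcnj12 measured 25, 21.7 and 22.9 CPM in baseline controls and 10.5, 20.1 and 9.93 CPM in baseline knockouts, without overlap (log2 fold change -0.78, SE 0.29, adjusted p 0.686). After STZ its knockouts alone ran from 2.77 to 30.4 CPM and overlapped the controls at 7.49 to 18.4 CPM. Kcnj2 had log2 fold changes of -0.32 (SE 0.49) and -0.74 (SE 0.40), with overlap in both arms.

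Accessory subunits of Kv1 and Kv7 channels and their partners were not called. Kcnab1, a cytoplasmic beta subunit of Kv1 channels, measured 6.29, 5.25 and 8.46 CPM in baseline controls and 4.1, 4.3 and 4.08 CPM in baseline knockouts, without overlap (log2 fold change -0.68, SE 0.21, adjusted p 0.543). After STZ it was at 3.59 to 3.93 CPM in controls and 3.87 to 4.57 CPM in knockouts, with overlap. Kcnab2 and Kcnab3 had log2 fold changes from -0.23 to 0.18 over both arms' knockout comparisons. Kcna5, a pore-forming Kv1 gene, was at 3.28 to 7.46 CPM in baseline controls and 2.02 to 4.4 CPM in baseline knockouts. Kcnq1, the Kv7 gene that pairs with Kcne1 in epithelia, was at 6.96 to 9.93 CPM in baseline controls and 9.07 to 16 CPM in baseline knockouts, with overlap, and its log2 fold change was 0.62 (SE 0.26, adjusted p 0.732) at baseline and 0.01 (SE 0.29) after STZ. Kcne1 and Kcne4 overlapped between genotypes in both arms, and so did Kcnmb2, another accessory subunit of the large-conductance channel. Kcna6, Kcnc2 and Kcne3, with values after STZ alone, had log2 fold changes from -0.12 to 0.26 with overlap. Kcnq1 shares 121 exonic bases with the antisense transcript Kcnq1ot1, which ran from 29.6 to 76.6 CPM.

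Levels between genes were compared only as CPM per kilobase of exon. In the baseline controls Kcnj16 was highest at 44.8 ± 19.8 CPM per kb (SD, n = 3), followed by Kcnj5 at 23.1 ± 2.91, Kcnj1 at 22.5 ± 0.738, Kcnj15 at 17.1 ± 8.52 and Kcnf1 at 10.5 ± 7.81. Kcnj16 did not overlap Kcnj5, while Kcnj5 and Kcnj1 overlapped. Another gap without overlap lay between Kcnk6 at 4.32 ± 0.399 and Kcnq1 at 2.15 ± 0.389 CPM per kb. Among the highest of each subfamily were Kcng2 at 5.43, Kcnk1 at 8.17, Kcnab3 at 2.1, Kcnu1 at 2.03, Kcna5 at 1.97, Kcne4 at 1.85, Kcnmb1 at 1.62 and Kcnd3 at 1.57 CPM per kb. Kcnh1 was at 1.25, Kcnn1 at 0.755, Kcnt2 at 0.72 and Kcnip2 at 0.665 CPM per kb. Kcnma1 was lowest at 0.424 ± 0.0357. In the STZ controls Kcnj16 was again highest, at 43.4 ± 23.3 CPM per kb, and Kcnf1 was at 3.26 ± 1.

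**Figure D3:**
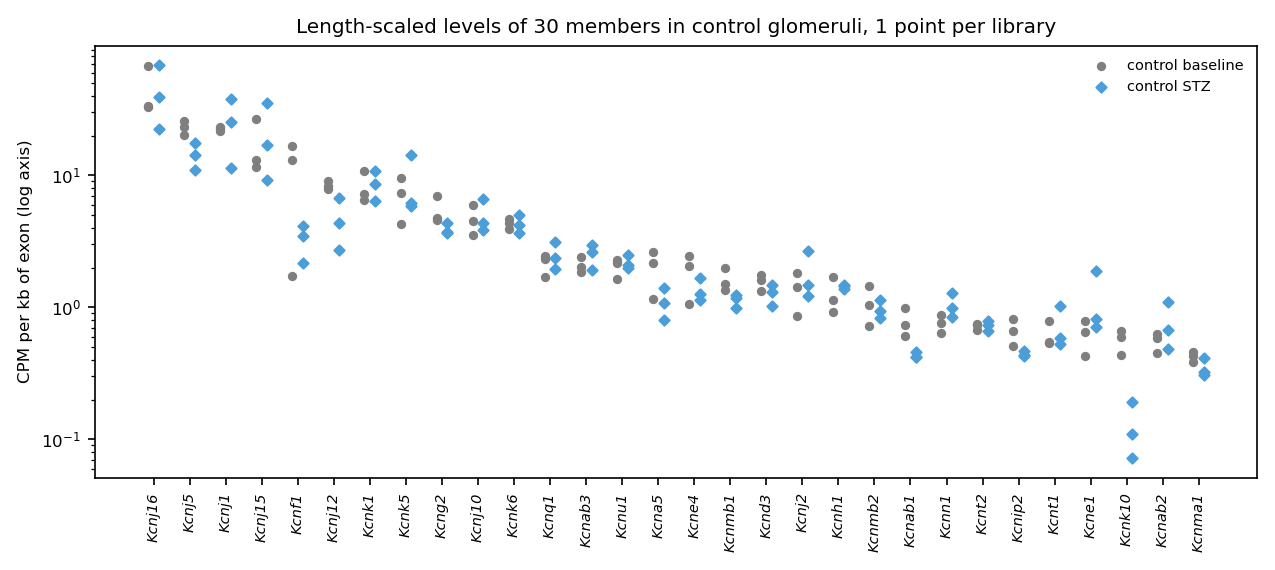
CPM per kilobase of exon (log axis) of 30 members listed in both arms, ordered by their mean in baseline controls, with 1 point per library of the baseline and STZ controls. Kcnj genes fill the first 4 places, and Kcnf1 and Kcnk10 have STZ controls well below most baseline controls.

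The 24 members listed only in the STZ tables were lowly expressed genes. Among them were Kcna6, Kcnc2, Kcnd1, Kcnd2, Kcne3, Kcnh2, Kcnh3, Kcnh4, Kcnh6, Kcnh7, Kcnh8, Kcnip3, Kcnip4, Kcnk2, Kcnk3, Kcnk15, Kcnn2, Kcnn3, Kcnn4, Kcnq3, Kcnq5 and Kcns3. Without Kcnk15, the other 23 lay between 0.294 and 5.54 CPM in every STZ library. Their median level in STZ controls, Kcnk15 included, was 0.346 CPM per kb, against 1.4 for the 32 members of both arms. Every gene of the STZ tables reached 100 counts in at least 1 STZ library, and 19 of the 24 did so in both groups. Kcnk15, Kcnip4, Kcna6 and Kcnd1 reached it only in knockouts, and Kcns3 only in controls, so the listing of these 5 depended on the group in which they were high, and 2 of the 6 calls (Kcnk15 and Kcnip4) are among them. Kcnh3, the remaining called gene of the 24, reached it in all 6 libraries. Kcnq3 and Kcnq5, genes of the Kv7 family, overlapped between knockouts and controls.

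**Figure D4:**
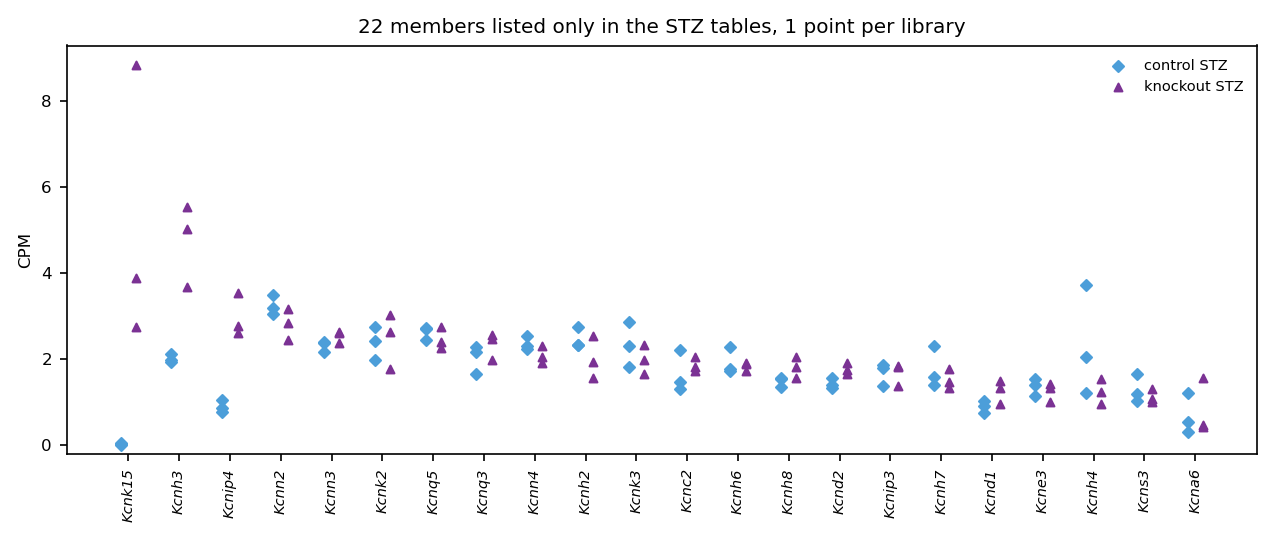
CPM of 22 members listed only in the STZ tables, ordered by their mean in STZ knockouts, with 1 point per library. Kcnk15, Kcnh3 and Kcnip4 have all knockouts above all controls, Kcnk15 with its controls at 0 to 0.0524 CPM.

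Knockout effects in the arms share no library. Of the 32 members with a value in both, 15 (46.9%) had the same sign, against 58.8% of 13470 genes. Pearson's r over the 32 members was 0.0952 and Spearman's rho 0.0139, as a description over genes of the same libraries. Without Kcng2 they were -0.246 and -0.0847, and over the 13470 genes 0.437 and 0.242. Libraries of knockouts and controls did not overlap for 4 members at baseline (Kcnd3 higher, Kcng2, Kcnab1 and Kcnj12 lower), where 11.8% of all genes were so placed, and for 12 of 56 after STZ (10 higher, 2 lower), where 14.9% were. In both arms and in the same direction this held for Kcng2 and Kcnd3, against 4.08% of all genes. The median log2 fold change of the members was -0.10 at baseline (all genes 0.01) and 0.04 after STZ (all genes -0.02), and the median size without sign was 0.30 (all genes 0.13) and 0.22 (all genes 0.14).

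**Figure D5:**
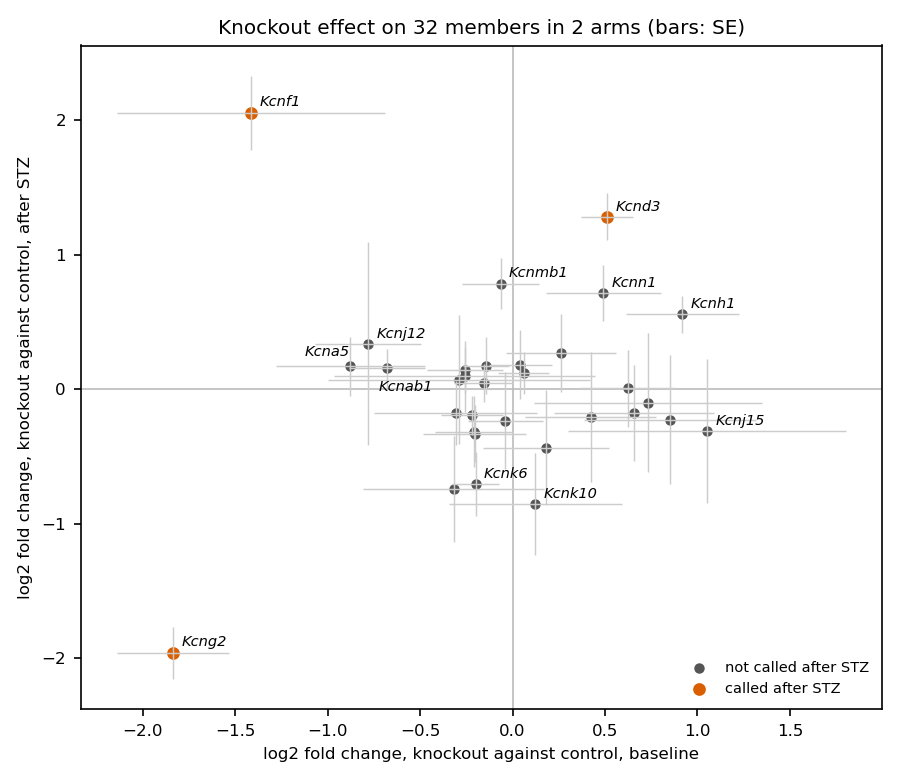
Log2 fold change of knockouts against controls after STZ against that at baseline for the 32 members listed in both arms, with SE as bars (3 libraries per group). Kcng2 lies at -1.84 and -1.96, Kcnd3 at 0.51 and 1.28, and Kcnf1 at -1.41 and 2.06 with the widest baseline bar of these.

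The mean log2 CPM of the 8 podocyte markers was 10.7, 10.3 and 10.6 in baseline controls and 10.3, 10.1 and 9.98 in baseline knockouts, while after STZ the controls had 10.8, 10.9 and 10.7 and the knockouts 10.6, 10.7 and 10.7. Their summed level was 20100 to 27500 CPM in baseline controls, 18200 to 22300 CPM in baseline knockouts, 29000 to 35700 CPM in STZ controls and 30700 to 31800 CPM in STZ knockouts. With that mean as a covariate, an alternative chosen after seeing the data, 0 members and 8 genes in all were called after STZ, and Kcng2 alone over both arms (log2 fold change -1.60, adjusted p 0.00368). At baseline the same covariate brought the log2 fold change of Kcng2 from -1.84 to -1.13 (adjusted p 0.534), of Kcnd3 from 0.51 to 0.28, of Kcnh1 from 0.92 to 0.41 and of Kcnf1 from -1.41 to 0.58. The log2 fold changes of the 6 members after STZ then ran from -2.09 (Kcng2) to 9.08 (Kcnk15), none with a changed sign, and those over both arms of Kcnd3 and Kcnh1 were 1.00 (adjusted p 0.0514) and 0.40 (adjusted p 0.444). With sex as a covariate after STZ, where 1 of 6 mice was female, Kcnk15 was called (adjusted p 0.0223) and the other 5 had adjusted p from 0.057 to 0.109. Their log2 fold changes with sex in the fit were -1.92 (Kcng2), 1.21 (Kcnd3), 1.39 (Kcnh3), 1.82 (Kcnip4) and 1.94 (Kcnf1), close to those without it, and 0.387% of all genes were called. Over both arms the same 3 members were called with sex in the fit.

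Genes that work with these channels were read from 3 lists. Partner subunits and other potassium-permeable channels had 13 of 22 genes tested at baseline and 17 after STZ, potassium pumps and cotransporters 17 and 18 of 18, and regulators of potassium transport 11 and 12 of 12. In both arms 0 of them were called between knockouts and controls, against 0.23% of all genes at baseline and 1.07% after STZ. With such shares a count of 0 says little about lists of this size. Over both arms Calm2, a calmodulin gene whose product gates small-conductance channels, was lower in knockouts (log2 fold change -0.67, SE 0.11, adjusted p 0.00684), and Atp12a, a proton-potassium pump, was higher (0.40, SE 0.09, adjusted p 0.0302). In that fit 2.83% of all genes were called. Dpp6 and Dpp10, which join Kv4 channels, had log2 fold changes after STZ of 0.02 (SE 0.13) and -0.54 (SE 0.20) and were not called.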

How the data were processed

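RNA-seq of glomeruli from 12 mice (4 groups of 3) was analysed. The authors deposited 1 table per library of counts per gene symbol; since 10.5% to 11.5% of a library's values end in 0.5, the deposited values were taken as estimated counts without depth scaling and were rounded to integers. Blank values (18 in all) were taken as 0. Per the submitters' processing notes, BWA and mm10 were used, with neither version nor role named. Strand handling, like the counting tool and the annotation, is not given in the sources used here. The tables of the arms had been filtered differently: 362 genes at baseline stay under 100 counts in every library, and none after STZ.

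Tests were edgeR's quasi-likelihood test in R 4.3.3 (limma 3.58.1, edgeR 4.0.16) on genes passing filterByExpr, with TMM scaling. P-values were Benjamini-Hochberg adjusted over all genes tested, and genes under 0.05 were called. Each knockout comparison within an arm used that arm's 6 libraries. The fit over both arms has arm as a term, and the interaction and the STZ comparisons use genes listed in both arms. Standard errors were derived from the F statistic. The interval of the count ratio reflects counting alone, because reads lacking molecular identifiers need not be separate molecules. The steps were tested on simulated data. Replicates differed by more than sampling noise (chi-square per degree of freedom 42 to 352). Positions and exonic lengths are those of GENCODE M21, and promoters those of RefSeq GRCm38.p6.

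The members and lists were chosen with earlier results of these data known. Some members enter every count but are not reported here by name or shown in the plots of levels. Values are given for members called in any of the 6 comparisons, members whose groups do not overlap in both arms, the 5 of smallest p in each knockout comparison, the highest of each subfamily, members listed only after STZ and textbook kidney channels. Members that did not overlap in 1 arm or differed between arms were also named, after their values were seen. Alternatives were DESeq2 1.42.0, upper quartile factors, no filter, leaving out each library, and the proximal tubule marker mean, sex or, added after seeing the data, the podocyte marker mean as a covariate.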

Additional observations from a re-analysis of the deposited data

How the results depend on the processing

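The 6 members called after STZ numbered 8 with DESeq2, which added Kcnh1 and Kcnmb1 (3.47% of all genes called). The count was 6 with upper quartile factors, without a filter (1.07% of all genes in each) and with the tubule covariate (2.09%). It was 1 with sex (0.387% of all genes) and 0 with the podocyte covariate (0.0491%), and ran from 0 to 4 without 1 library. At baseline the count of 0 became 1 (Kcng2) with DESeq2 (1.65% of all genes) and with the tubule covariate (0.505%), and ran from 0 to 1 without 1 library. Over both arms the count of 3 became 4 with DESeq2 (Kcnn1 added; 5.17% of all genes) and 1 with the podocyte covariate (2.2%), and ran from 2 to 4 without 1 library. The interaction count of 0 became 1 (Kcnf1) with DESeq2 (0.23% of all genes) and ran from 0 to 1 without 1 library. Between arms, the count of 0 in controls became 2 with DESeq2 (3.04% of all genes), and the count of 1 in knockouts became 2 with DESeq2 (5.97%) and with the tubule covariate (2.12%), 0 with sex and 0 with the podocyte covariate, and was 0 in every fit without 1 library. Values of single members were followed under the alternatives only for called members, the 5 of smallest p and, at baseline and over both arms, Kcnf1. The comparison of STZ against baseline in controls was left out, and signs of other members were not followed. Of the values followed, 335 kept their direction and side of the threshold, 55 lost the call, 9 gained it and 3 changed sign, all of Kcnf1. These were 0.58 at baseline with the podocyte covariate, and -0.0109 and -0.0889 over both arms without STZ control 2 and without STZ control 3. Over both arms Kcnf1 had 0.34 with all libraries and up to 0.72 without another library. The cause was not tested. No paired analysis was possible because the numbers only name libraries and pair no mice. With 3 mice per group and members mostly under 30 CPM, a difference that was not called is not shown to be absent.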
